A study of Mus musculus with 4 samples.

Results

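A small mesenchymal population of the fetal mouse penis, here called the Wnt10a/Notum/Dsc3 cells, was picked out of single-cell libraries by its transcripts. A cell belonged to it when at least 3 of the 7 genes Dsc3, Wnt10a, Notum, Rprm, Ephb1, Wnt6 and Prdm1 had a unique molecular identifier (UMI, which marks 1 captured mRNA molecule) and at most 1 of the 4 epithelial genes Epcam, Cdh1, Krt5 and Krt14 did. Only cells with 1000 to 10000 UMIs, at most 25% of them from mitochondrial (mt-) genes and at most 25% from the hemoglobin genes Hba- and Hbb-, were considered. Of 47040 barcodes, 33704 passed these limits, and 1416 of those were Wnt10a/Notum/Dsc3 cells. The cells were chosen by their detected expression of these 11 genes. The levels of the rule's genes, and every difference in level between the chosen cells and the rest, are therefore described below and not tested. Fold changes between genotypes were compared between the cell sets with a test. The fit between genotypes was made over all genes, those of the rule included.

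The tissue was the penis at embryonic day (E) 16.5, in 2 DTA- and 2 DTA+ libraries made with 10x Genomics chemistry. DTA- embryos carried the floxed diphtheria toxin allele at the Rosa26 locus (RosaDTA f/+) without Nr5a1-Cre, and their genotype is entered in the labels as WT. DTA+ embryos carried the toxin allele (Rosa-LSL-DTA +/f) and a tdTomato reporter allele at the same locus (Rosa-LSL-tdTomato +/f) together with the Nr5a1-Cre transgene (Tg/+), so that toxin is made in cells that have switched on the Nr5a1 promoter and in their descendants. The question was how the penis develops when these cells are removed. Nr5a1-Cre is also active in the testis and the adrenal gland, so loss of local cells and loss of hormones cannot be told apart here. Nr5a1 itself had 1 UMI in all Wnt10a/Notum/Dsc3 cells together.

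Wnt proteins are secreted signals that act over short distances through Frizzled receptors and, in the canonical branch, through beta-catenin. Notum is a secreted enzyme that removes the lipid Wnt ligands need, and it is itself a target of Wnt signalling in several tissues. Dsc3 encodes desmocollin 3, a cadherin of desmosomes, which are junctions best known from stratified epithelia. In the genital tubercle, mesenchyme beneath the epithelium exchanges Wnt, Bmp, Fgf and hedgehog signals with it as the glans and the prepuce take shape.

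The libraries held 314 and 131 Wnt10a/Notum/Dsc3 cells in DTA- replicates 1 and 2, and 321 and 650 in DTA+ replicates 1 and 2. Their median depths were 4268, 3502, 3286 and 3378.5 UMIs in that order of libraries, which is the order of every set of 4 values below. Summed over these cells, the libraries gave 1507323, 568034, 1233629 and 2545509 UMIs, so DTA- replicate 2 carried the least information. The cells were set beside 29742 other mesenchymal cells of the same libraries, which had fewer than 3 of the 7 genes, at most 1 of the 4 epithelial genes, at least 3 of Col1a1, Col1a2, Col3a1, Pdgfra, Twist1 and Prrx1, and at most 1 of 6 endothelial, immune and glial genes, among them Pecam1, Cdh5, Ptprc, Tyrobp and Sox10. The median depths of those cells, 5134, 4274, 3699 and 3710 UMIs, were higher in each library. Levels are UMIs per 1000000 UMIs (CPM) of the cells summed per library, and are compared within a gene and not between genes.

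The ligand genes of the rule are given first, and then the others. Wnt6 had a UMI in 75.8%, 68.7%, 71.0% and 62.3% of the cells, and in 7.22%, 6.65%, 7.12% and 6.69% of the other mesenchymal cells. Wnt10a was found in 61.5%, 50.4%, 50.8% and 47.4% of the cells, at 248, 169, 200.2 and 196 CPM against 3.54 to 4.38 CPM in the other mesenchymal cells. Its level was highest in DTA- replicate 1 and the genotypes overlapped. Notum stood at 159.9, 144, 170.2 and 172 CPM against 3.30 to 6.37 CPM. Prdm1, a transcriptional repressor that marks several signalling centres of the embryo, was at 247, 296, 348 and 324 CPM, and Ephb1, an ephrin receptor, at 261, 269, 383 and 382 CPM. Both, like Notum, had every DTA+ value above every DTA- value. Dsc3 was at 239.5, 185, 411 and 418 CPM, also without overlap of the genotypes, and was found in 53.5%, 43.5%, 67.9% and 66.6% of the cells. Rprm, a p53 target that can halt the cell cycle, was at 156, 86.3, 121 and 293 CPM, with DTA+ replicate 2 the highest and the genotypes overlapping. In the GRCm38 annotation Wnt6 (chr1:74771892-74785322) and Wnt10a (chr1:74791516-74804179) lie on the same strand with 6193 bases between them, and on chromosome 18 Dsc3 and Dsc2 have 28281 bases between them.

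The limit of 3 genes cut through a continuum. Just inside it lay 145, 83, 136 and 293 cells with exactly 3 of the genes, and just outside it 387, 251, 322 and 603 cells with 2. All 7 genes were detected in 6, 1, 5 and 17 cells. A further 8, 2, 10 and 6 cells reached 3 genes but had more than 1 epithelial gene and were left out. The libraries held 129, 119, 114 and 114 barcodes that also occurred in another library, and 0, 1, 4 and 11 of the Wnt10a/Notum/Dsc3 cells had such a barcode.

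Mesenchymal markers were present in the cells, though at a lower sum than in the other mesenchymal cells. Of the cells, 309, 125, 307 and 626 also met the mesenchymal criteria of the comparison cells, and 5, 6, 14 and 24 did not. Pdgfra, a growth factor receptor of mesenchymal cells, was at 186, 188, 297 and 265 CPM against 115, 142, 188 and 177 CPM in the other mesenchymal cells, and Twist1, a mesenchymal transcription factor, at 672, 861, 687 and 605 CPM against 612, 645, 915 and 813 CPM. The fibrillar collagen gene Col1a1 was lower in each library, at 1213, 1808, 1248 and 1246 CPM against 2178, 3243, 2890.5 and 1922 CPM. The 8 pan-mesenchymal genes listed summed to 6567, 10028, 7434 and 6956 CPM against 11174, 16323, 14676 and 10849 CPM, with 0 over 1 log2 unit above and 1 as far below in all 4 libraries, where 10 CPM was added to each level. Of the 6769 genes with at least 20 CPM in either cell set, 1.6% were as far above and 0.96% as far below. The epithelial genes of the rule were kept low by the choice of cells, and Epcam was at 0, 0, 0.811 and 2.36 CPM, Cdh1 at 0.663, 0, 0 and 0 CPM and Krt14 at 5.97, 5.28, 10.5 and 4.32 CPM. A list of 12 epithelial genes outside the rule summed to 25.2, 24.6, 43.8 and 35.0 CPM against 54.2, 41.5, 46.3 and 50.7 CPM, and its most abundant gene was Cdh3.

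Endothelial, macrophage and melanocyte genes were low in most libraries, while erythroid genes were abundant in all 4. The 5 endothelial genes summed to 7.96, 17.6, 12.2 and 14.5 CPM against 6.21, 7.60, 11.2 and 12.1 CPM in the other mesenchymal cells. Only the other mesenchymal cells were limited to at most 1 of 6 endothelial, immune and glial genes. That limit lowers their endothelial and macrophage sums, so no difference between the cell sets is read from them. The 5 macrophage genes summed to 1.99, 0, 47.0 and 5.50 CPM against 10.9, 7.26, 7.39 and 9.85 CPM, and in DTA+ replicate 1 all 59 UMIs of Lyz2, 70 of the 80 of Plac8 and 32 of the 44 of Tyrobp each lay in 1 cell. Melanocyte genes summed to 2.65, 3.52, 8.11 and 65.6 CPM against 5.31, 4.64, 9.52 and 9.32 CPM, and 62 of the 64 Pmel UMIs of DTA+ replicate 2 lay in 1 cell. In DTA- replicate 2 all 62 UMIs of Mup17, a major urinary protein gene, lay in 1 cell. Erythroid genes, whose mRNA can reach droplets as free RNA, summed to 1897, 2396, 1959 and 1019 CPM against 4036, 3694, 2419 and 884 CPM.

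Of the desmosome genes other than Dsc3, 3 were higher in these cells, Dsc2, Dsp and Dsg2. Dsc2, the neighbouring desmocollin, was at 52.4, 28.2, 70.5 and 80.1 CPM against 1.04, 0.797, 1.62 and 2.68 CPM in the other mesenchymal cells. Dsp (desmoplakin, which ties the junction to intermediate filaments) was at 25.2, 21.1, 50.3 and 38.1 CPM against 1.55, 1.28, 2.83 and 2.44 CPM, and Dsg2 (a desmoglein) at 18.6, 17.6, 29.99 and 27.1 CPM against 1.12, 1.42, 1.28 and 1.82 CPM. With 10 CPM added to each level, the log2 ratios over the 4 libraries ran from 1.82 to 2.83 for Dsc2, 1.46 to 2.23 for Dsp and 1.27 to 1.83 for Dsg2. Jup (plakoglobin) was at 19.2, 33.4, 25.9 and 18.9 CPM against 17.9, 19.0, 18.3 and 19.0 CPM. Of the 12 desmosome genes listed, 2 had no UMI in the cells, the median log2 ratio was 0.06, and these 3 were over 1 log2 unit above in all 4 libraries, where 1.6% of all genes were.

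When the cells were clustered without the 11 genes of the rule, many still fell together. Cluster 2, with 933 cells, held 49.2% of the Wnt10a/Notum/Dsc3 cells, and 74.7% of its cells belonged to them. Cluster 16 held 23.9% of them, cluster 10 held 11.6%, and cluster 7, led by the cell cycle gene Top2a, 3.53%. The share in cluster 2 was 46.5%, 42.7%, 54.5% and 49.2% in the 4 libraries. Which cluster held the most in DTA+ replicate 1 depended on the setting. At resolution 2 the main cluster, with 44.4% of all the cells, held 38.0% of those of that library and the next 43.9%, and with the genes of the rule kept (46.9% of all in the main cluster) the values were 39.9% and 43.9%. Cluster 10 held 15.6%, 6.87%, 5.61% and 13.5%, with the genotypes overlapping. Cluster 12, led by Sostdc1 and Wnt16, held 9.16% of those of DTA- replicate 2 and 1.27%, 1.87% and 1.23% of those of DTA- replicate 1 and DTA+ replicates 1 and 2.

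**Figure D1:**
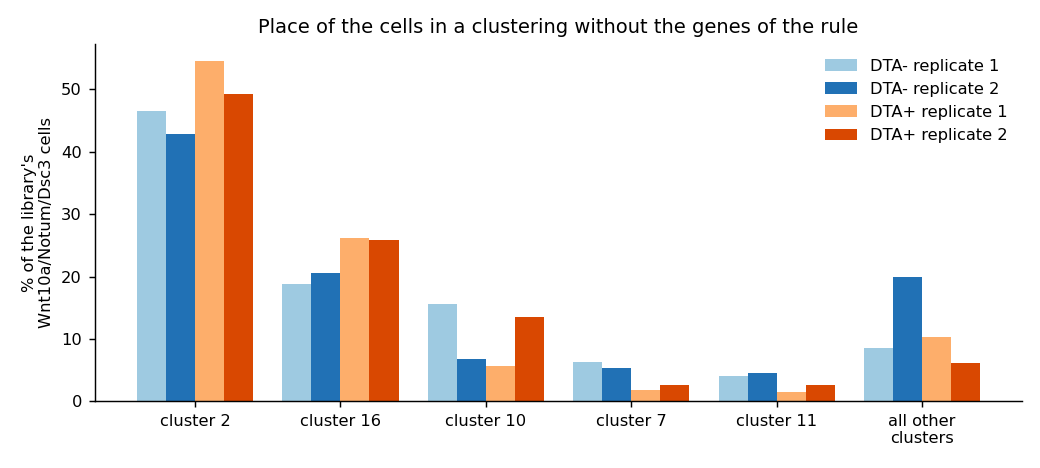
Percentage of each library's Wnt10a/Notum/Dsc3 cells (vertical axis) in the clusters that hold most of them, from a clustering without the genes of the rule, with 1 bar per library. Cluster 2 has the tallest bar in all 4 libraries, from 42.7% to 54.5%.

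The cells differed with the cluster they lay in. Pooled over libraries, those in cluster 2 had Wnt10a at 332 CPM, those in cluster 16 at 155 CPM and those in cluster 10 at 54.5 CPM. Dsc3 was at 531, 360.2 and 80.3 CPM in the same order, and Dsc2 at 101, 67.1 and 15.8 CPM. Wnt10a and Dsc3 were used to choose the cells, so nothing is read from their order over clusters. The clusters took different shares of each library. Six2, a homeobox factor of progenitor cells, was at 207, 118 and 76.0 CPM, and Pcp4, a calmodulin regulator, at 106, 4.52 and 0 CPM. Cells in cluster 16 had the most Cpm, a carboxypeptidase (510.1 CPM against 119.6 CPM in cluster 2), and Dlx5, a homeobox factor of skeletal and genital development (212 against 82.5 CPM). Cells in cluster 10 had the most Tac1, the precursor of substance P (883 CPM against 442 CPM).

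Hs3st3b1, Ahr, Gata3 and Six2 were among the genes highest against the other mesenchymal cells. Outside the rule, 108 genes were over 1 log2 unit above in all 4 libraries, and 65 (0.96%) were as far below. Hs3st3b1, a heparan sulfate sulfotransferase, led with 178, 144, 251 and 244 CPM against 10.5, 9.79, 11.3 and 23.2 CPM. Ahr, the aryl hydrocarbon receptor, was at 195, 169, 345 and 213 CPM against 22.1, 22.0, 29.0 and 32.4 CPM, and Gata3, a zinc finger factor, at 112, 54.6, 134 and 153 CPM against 6.10, 3.27, 6.28 and 19.1 CPM. Six2 was at 151, 96.8, 134 and 148 CPM against 18.0, 12.4, 6.72 and 21.1 CPM. For each of these 4 genes the lowest library of the Wnt10a/Notum/Dsc3 cells lay above the highest of the other mesenchymal cells. Sp9, a zinc finger factor of limb outgrowth, had log2 ratios of 2.14 to 2.68, Sema3a, an axon repellent, of 2.09 to 2.59, and Jag1, a Notch ligand, of 1.73 to 2.08. D030025E07Rik, Vgll2, Runx1, Nkd2, Pcp4, Cpm, Tnik, Prcd, Dsc2, Hand2os1, Mtss1, Ntm and Bmp7 completed the 20 highest.

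**Figure D2:**
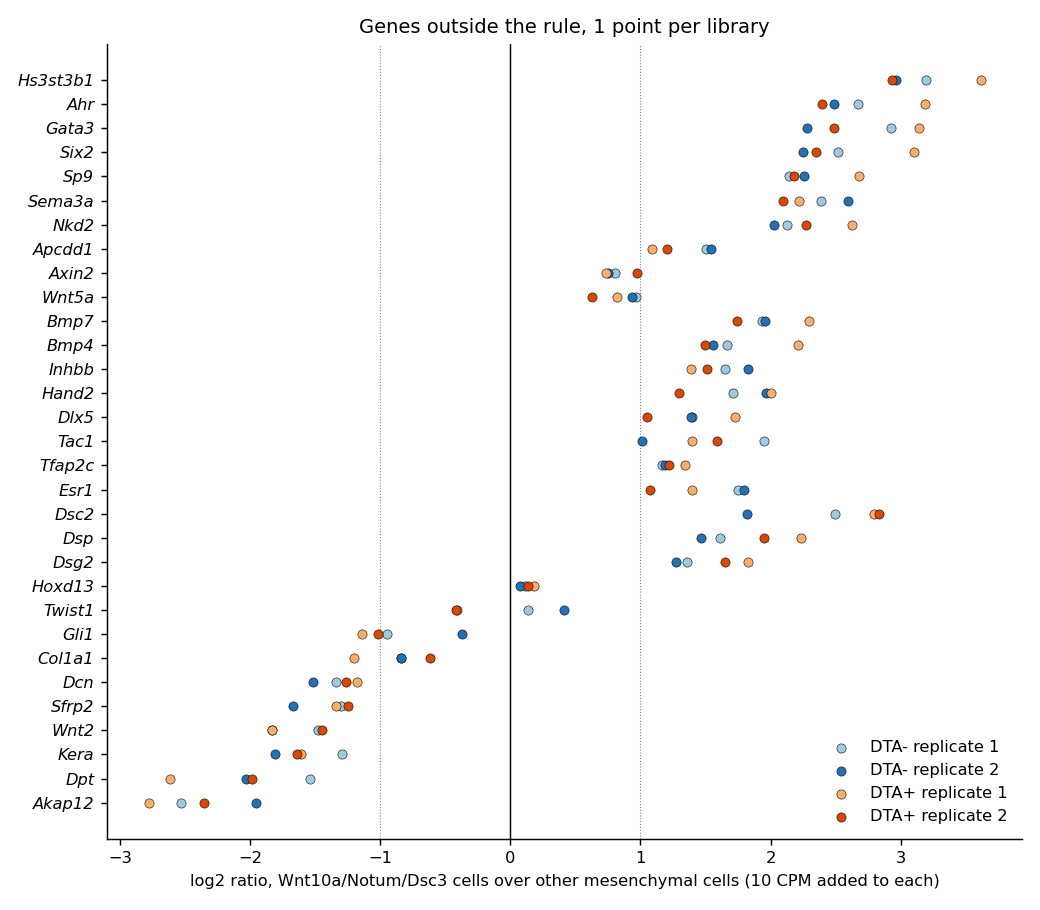
Log2 ratio of the Wnt10a/Notum/Dsc3 cells over the other mesenchymal cells (horizontal axis, 10 CPM added to each level) for genes outside the rule, with 1 point per library and dotted lines at 1 log2 unit either way. Hs3st3b1 lies at 2.93 to 3.62 and Akap12 at -2.78 to -1.95.

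Several Wnt pathway genes outside the rule differed from the other mesenchymal cells. Of the 17 other Wnt ligand genes 0 were over 1 log2 unit above in all 4 libraries and 1 was as far below, and of the 12 Wnt targets 2 were above, beside 1.6% of all genes above and 0.96% below. Wnt5a, a ligand needed for outgrowth of the genital tubercle, was at 1359, 1507, 1771 and 1666 CPM against 690.0, 782, 997 and 1078 CPM in the other mesenchymal cells. Wnt4 was at 55.7, 40.5, 73.8 and 34.2 CPM against 22.8, 24.9, 21.2 and 26.9 CPM, and Wnt2, the ligand gene below, at 3.32, 1.76, 5.67 and 6.29 CPM against 27.1, 31.8, 45.9 and 34.4 CPM. The 12 Wnt targets, most of them feedback regulators, summed to 1383 to 1548 CPM against 603 to 685 CPM. Nkd2, a feedback inhibitor, was at 354, 315, 412 and 372 CPM against 73.4, 69.7, 58.3 and 69.2 CPM, and Apcdd1, a membrane inhibitor, at 528, 607, 525 and 559 CPM against 179.6, 202, 242 and 237 CPM. Axin2, the most used readout of the canonical branch, was at 114, 121, 148 and 182 CPM against 61.1, 68.2, 85.1 and 87.8 CPM. All 3 targets were higher in every library. Of the secreted inhibitors, Dkk2 was at 241, 192, 257 and 363 CPM against 92.2, 78.9, 163 and 242 CPM, Sfrp2 at 139, 100.3, 94.8 and 99.4 CPM against 357, 341, 255 and 250.1 CPM and Dkk1 at 3.32, 1.76, 1.62 and 3.54 CPM against 31.3, 16.6, 21.9 and 26.9 CPM.

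Of the 22 Bmp and activin genes listed, 3 were over 1 log2 unit above and 1 was as far below in all 4 libraries, beside 1.6% and 0.96% of all genes. These were the ligand genes Bmp4, Bmp7 and Inhbb above and Fst below. Bmp4 was at 589.8, 412, 498 and 506 CPM against 179, 134, 99.8 and 173 CPM, and Bmp7 at 135, 123, 155 and 131 CPM against 28.1, 24.3, 23.7 and 32.1 CPM. Inhbb, a subunit of activin B, was at 41.8, 51.1, 50.3 and 47.9 CPM against 6.55, 7.23, 13.0 and 10.3 CPM. Fst, a secreted protein that binds activin, was at 27.9, 52.8, 12.2 and 26.3 CPM against 92.5, 129, 71.5 and 63.2 CPM. The growth factor gene Fgf18 was at 47.8, 37.0, 41.3 and 33.0 CPM against 8.49, 8.26, 7.96 and 9.70 CPM.

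Genes tied to regions of the fetal penis were looked at as lists. The distal glans list of Msx1, Msx2, Inhba and Bmp4 summed to 1039, 734, 886 and 1039 CPM against 522, 325, 367 and 601 CPM. Bmp4 made up most of that surplus in each library and was the 1 gene of the 4 over 1 log2 unit above in all 4. The distal glans list of Tac1, Tfap2a, Tfap2b and Tfap2c summed to 619, 407, 538 and 834 CPM against 189, 166, 220.0 and 338 CPM. Both sums were higher in every library. Of the 4 genes of the second list 2 were over 1 log2 unit above in all 4 libraries, beside 1.6% of all genes, with Tac1 at 368, 111, 285 and 575 CPM against 87.8, 49.9, 102 and 185 CPM and Tfap2c, an AP-2 factor, at 41.1, 31.7, 36.5 and 59.3 CPM against 12.8, 8.29, 8.30 and 19.8 CPM. The list of the subdermal prepuce ran the other way, at 16.6, 38.7, 18.6 and 24.7 CPM against 67.3, 124, 107 and 109.9 CPM, led by Dpt, a dermal matrix gene and the 1 of its 5 genes over 1 log2 unit below in all 4. The periurethral list with Foxl2 summed to 105, 84.5, 102 and 114 CPM against 111, 104, 118 and 158 CPM, and Foxl2 had no more than 4.05 CPM in any library. The general prepuce list was higher in both DTA- libraries and lower in both DTA+ libraries, at 657, 648, 541 and 456 CPM against 422, 482, 696 and 613 CPM. Most of that sum was Crabp1, a retinoic acid binding protein gene (413 CPM on average), and of the 4 genes 1 was over 1 log2 unit above and 2 as far below in all 4 libraries, beside 1.6% and 0.96% of all genes, with a median log2 ratio of -0.48. The osteogenic list, of which 1 gene of 5, Dlx5, was over 1 log2 unit above in all 4 libraries, was higher in every library, at 211, 141, 204 and 197 CPM against 117, 82.8, 75.0 and 121 CPM. Tac1, Bmp4 and Tfap2c were not highest in the population. In cluster 10, with 2383 cells of which 6.88% belonged to it, they were at 711, 640 and 98.0 CPM, pooled over libraries. No position in the tissue was measured.

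Of 18 listed factors that pattern the genital tubercle, 3 were over 1 log2 unit above and 0 as far below in all 4 libraries. Beside this, 1.6% of all genes were above and 0.96% below, and the list's median log2 ratio was 0.42. Hand2 was at 114, 139, 139 and 97.4 CPM against 27.8, 28.2, 27.1 and 33.6 CPM, Dlx5 at 124, 72.2, 105 and 99.8 CPM against 40.8, 21.3, 24.7 and 43.1 CPM, and Pitx1, a factor of the hindlimb and the tubercle, at 183, 68.7, 171 and 192 CPM against 64.3, 37.3, 31.4 and 65.4 CPM. Hand2, Dlx5 and Pitx1 were each higher in every library, but Pitx1 by less than 1 log2 unit in DTA- replicate 2. The 3 genes that passed were Hand2, Dlx5 and Six2, whose levels are given above. The posterior Hox gene Hoxd13 was at 96.2, 88.0, 84.3 and 118 CPM against 88.3, 83.2, 73.1 and 106 CPM, a log2 ratio of 0.07 to 0.18. Gli1, a hedgehog target, was at 2.65, 10.6, 1.62 and 1.96 CPM against 14.4, 16.6, 15.7 and 14.2 CPM, and Ptch1, the hedgehog receptor and a target too, at 23.2, 89.8, 42.2 and 30.2 CPM against 58.9, 83.9, 87.3 and 85.3 CPM. Gli1 was lower in every library, and of the 13 hedgehog genes listed 0 were over 1 log2 unit either way in all 4.

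Dermal condensates, the cell clusters beneath forming hair follicles, were looked for because they too can express Prdm1. Sox2, which marks many of them, had a UMI in 0 of 314, 4 of 131, 4 of 321 and 2 of 650 cells. Sox18 was at 3.32, 45.8, 4.05 and 3.14 CPM, and the 26 UMIs of DTA- replicate 2 lay in 7 of its cells. It had a UMI in 1.27%, 5.34%, 0.312% and 1.08% of the cells, against 2.58%, 2.67%, 1.55% and 3.16% of the other mesenchymal cells. The list of 10 condensate genes summed to 934, 1119.7, 1036 and 1135 CPM against 484, 495, 641 and 654 CPM, and its most abundant gene was Trps1 (778, 887, 850.3 and 978 CPM), a zinc finger factor of cartilage and hair. Of the 10 genes 1 was over 1 log2 unit above and 1 as far below in all 4 libraries, beside 1.6% and 0.96% of all genes. The list's median log2 ratio was 0.018, and most of its sum came from 1 gene. Sox2 was thus sparse, though more frequent than in the other mesenchymal cells in DTA- replicate 2 and DTA+ replicate 1.

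Among steroid genes, Esr1, the estrogen receptor, was at 37.8, 37.0, 69.7 and 57.0 CPM against 4.22, 3.50, 20.3 and 21.9 CPM. It was higher in every library. Of the 10 genes listed it was the 1 over 1 log2 unit above in all 4 libraries, beside 1.6% of all genes. The list's median log2 ratio was -0.058. Its sum was lower in every library, at 372, 419, 486 and 438 CPM against 470, 533, 678 and 554 CPM.

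Akap12 and Lox were among the 10 genes lowest against the other mesenchymal cells. Akap12, a kinase anchor, was at 13.9, 51.1, 40.5 and 51.1 CPM against 129, 226, 337 and 302 CPM, and Lox, which crosslinks collagen, at 71.0, 160.2, 56.7 and 60.9 CPM against 353, 531, 342 and 346 CPM. Ntrk3, Adamts1, Rgs5, AW551984, Penk, Gria2, Vcam1 and Tent5a were the others of the 10 lowest. Of the 18 matrix genes listed 2, and of the 5 pericyte genes 1, were over 1 log2 unit below in all 4 libraries, beside 0.96% of all genes. Dcn (decorin, which binds collagen fibrils) was at 508, 555, 996 and 680.4 CPM against 1302, 1610.2, 2273 and 1644 CPM.

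Whether the population's size differed between the genotypes was asked first. It made up 4.13%, 1.55%, 3.87% and 6.94% of the cells kept, with exact 95% Clopper-Pearson intervals of 3.70 to 4.60%, 1.30 to 1.84%, 3.46 to 4.30% and 6.43 to 7.47%, which cover counting error only. The mean was 2.84% ± 1.82 (SD, n = 2) in DTA- and 5.40% ± 2.17 (SD, n = 2) in DTA+, and the genotypes overlapped. An exact two-sided permutation test gave p = 0.667, where the smallest p that 2 against 2 penises allow is 0.3333. The ratio of the means, 1.90, was 3.48 without DTA- replicate 1, 1.31 without DTA- replicate 2 and 1.36 without DTA+ replicate 2. After each cell was thinned to 1000 UMIs before the rule was applied, the shares were 0.816%, 0.273%, 0.915% and 1.73%, without overlap, at the smallest p the design allows (exact permutation p = 0.3333). With at least 4 of the 7 genes and with cells of cluster 2 only, the shares did not overlap either (exact permutation p = 0.3333 in each), though with at least 4 genes the nearest were 2.22% and 2.23%. As a share of mesenchymal cells, the genotypes did overlap with at least 4 genes (exact permutation p = 0.667). DTA- replicate 1 was then at 2.39% and DTA+ replicate 1 at 2.32%. With 2 penises per genotype the test cannot pass a threshold of 0.05 whatever the shares are.

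**Figure D3:**
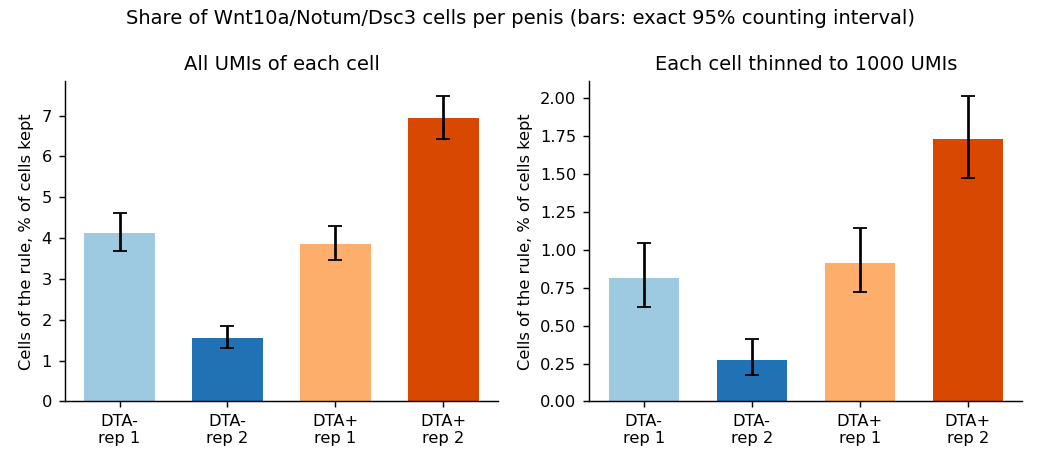
Share of Wnt10a/Notum/Dsc3 cells among all cells kept (vertical axis, %) in each library, with all UMIs and with each cell thinned to 1000 UMIs, and bars for the exact 95% counting interval. DTA- replicate 2 is lowest and DTA+ replicate 2 highest with either count, at 1.55% and 6.94% with all UMIs.

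Genes that differed between DTA- and DTA+ penises within the population were sought next, from counts summed per library, with edgeR's quasi-likelihood test and Benjamini-Hochberg adjustment over all genes. Of 9787 genes tested, 39 (0.398%) passed an adjusted p of 0.05, 19 of them higher (0.194%) and 20 lower (0.204%) in DTA+, and 991 had an unadjusted p under 0.05. In the other mesenchymal cells of the same penises 178 of 15629 genes (1.14%) passed, 90 higher (0.576%) and 88 lower (0.563%). Dsc3, a gene of the rule, was 1 of the 39 and is left as described above, which leaves 38. The p-values measure the spread between these 4 libraries. DESeq2 called 19 genes, and edgeR called 264 without DTA- replicate 1, 348 without DTA- replicate 2 and 78 without DTA+ replicate 1. Without DTA+ replicate 2, the largest library, 18 of the 38 kept their call. Each of these fits leaves 1 genotype with a single library, which is assumed to vary as the libraries of the other genotype do.

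Several genes of DNA replication and the cell cycle fell in DTA+. Pclaf, which binds the replication clamp, was at 137, 144, 49.4 and 27.5 CPM (log2 fold change -1.93 ± 0.24 SE, edgeR adjusted p = 0.000413). Mcm3, a subunit of the replicative helicase, was at 43.1, 45.8, 12.2 and 10.2 CPM (-1.99 ± 0.28 SE, edgeR adjusted p = 0.00181), and Top2a, which untangles replicated chromosomes, at 201, 218, 111 and 61.3 CPM (-1.31 ± 0.22 SE, edgeR adjusted p = 0.00981). In all 3 genes both DTA+ penises lay below both DTA- penises. In the other mesenchymal cells Pclaf was at 161, 165, 126 and 96.6 CPM, Mcm3 at 52.0, 46.7, 37.5 and 34.6 CPM and Top2a at 185, 248, 189.6 and 139 CPM. The fold change of each differed between the cell sets, by -1.27 for Pclaf (edgeR interaction, adjusted p = 5.07e-09), -1.41 for Mcm3 (edgeR adjusted p = 0.000352) and -0.87 for Top2a (edgeR adjusted p = 1.22e-05). With thinned cells the difference for Mcm3 was 0.60, and with cells of cluster 2 only that for Pclaf was 0.92, neither past the threshold.

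Also of this kind were Rrm2, Tyms and Tk1, which make nucleotides, Gmnn (geminin, which limits licensing), Birc5 (survivin), Dnajc9 (a histone chaperone) and the histone genes Hist1h1a and H2afz. Their log2 fold changes ran from -2.06 for Tk1 to -0.69 for H2afz. These genes and the 3 before them, 11 in all, were grouped after their values were seen. In the list of 12 cell cycle genes 2, Top2a and Rrm2, passed, both lower, where 0.204% of all genes fell, and the median log2 fold change was -0.71 where it was 0.01 over all genes tested. In the other mesenchymal cells the median of the same genes was -0.47 and 0 passed.

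Cells with cell cycle transcripts were fewer in DTA+ in both cell sets. Cells with at least 2 of the 12 genes made up 17.5%, 17.6%, 8.72% and 10.5% of the population and 30.2%, 27.3%, 18.2% and 16.8% of the other mesenchymal cells. After thinning to 1000 UMIs the shares were 7.32%, 8.40%, 4.36% and 1.85%, and 10.8%, 12.6%, 8.03% and 6.73%. Both DTA+ penises lay below both DTA- penises in each of these 4 sets of shares. In cluster 7, led by Top2a, lay 6.37%, 5.34%, 1.87% and 2.62% of the population's cells, which were 20, 7, 6 and 17 cells. Pooled over libraries, Top2a was at 1664 CPM in these cells. It was at 9.08 CPM in those of cluster 2, 4.52 CPM in cluster 16 and 43.0 CPM in cluster 10. The level of Top2a thus rests largely on few cells. The part of their number in its fall, and in its difference between the cell sets, was not tested.

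The DNA before 2 of these genes is shown because they fell together. The 250 bases before each gene's start, from RefSeq (GRCm38.p6), are printed 5′ to 3′ on the gene's strand, with the box CCAAT and its reverse complement ATTGG in capitals. Top2a (chr11:99024190-99024439, minus strand) has 6 boxes, and Pclaf (chr9:65890073-65890322, plus strand) has 2.
Top2a: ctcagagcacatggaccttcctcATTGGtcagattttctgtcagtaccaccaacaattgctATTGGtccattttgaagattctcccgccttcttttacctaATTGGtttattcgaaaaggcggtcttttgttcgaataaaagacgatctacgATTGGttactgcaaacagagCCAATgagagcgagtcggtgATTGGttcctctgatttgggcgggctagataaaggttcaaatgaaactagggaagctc
Pclaf: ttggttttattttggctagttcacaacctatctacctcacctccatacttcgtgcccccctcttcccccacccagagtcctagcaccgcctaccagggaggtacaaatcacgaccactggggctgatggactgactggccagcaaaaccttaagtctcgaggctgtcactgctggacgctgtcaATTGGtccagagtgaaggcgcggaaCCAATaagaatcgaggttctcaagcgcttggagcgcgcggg
Of the 11 genes, 10 were in the RefSeq table, and 6 of those (Mcm3, Pclaf, Rrm2, Top2a, Hist1h1a and H2afz) had a box on either strand. A box was found in 33.9% of 32851 start regions of this length, and 5 or more in 0.213%. A match describes the sequence and does not show a bound site.

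A ligand, a patterning factor and a Bmp-binding protein fell in DTA+ within the population. Bmp2 was at 115, 190.1, 68.1 and 68.0 CPM (-1.08 ± 0.22 SE, edgeR adjusted p = 0.0315) against 34.7, 37.6, 27.6 and 31.9 CPM in the other mesenchymal cells, and the fold changes differed by -0.70 (edgeR adjusted p = 0.0134). Tfap2b, an AP-2 factor, was at 26.5, 37.0, 4.86 and 7.46 CPM (-2.18 ± 0.37 SE, edgeR adjusted p = 0.00981) against 6.60, 4.50, 1.79 and 8.30 CPM, with a difference of -2.07 (edgeR adjusted p = 0.00258). Mgp, which limits calcification and binds Bmp ligands, was at 227, 252, 136 and 115 CPM (-0.92 ± 0.17 SE, edgeR adjusted p = 0.0177), with a difference of -0.58 (edgeR adjusted p = 0.0142). The difference for Mgp changed sign with cells holding at least 4 of the 7 genes (0.031) and with thinned cells (0.19), neither past the threshold. In each gene the genotypes did not overlap. Bmp4 had a log2 fold change of 0.00 ± 0.18 SE. Pooled over libraries, Bmp2 was at 113 CPM in the population's cells of cluster 2 and 18.8 CPM in cluster 16. It was at 176 CPM in cluster 10 and 159 CPM in cluster 7. The part of the clusters' shares in the fall of Bmp2 was not tested.

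Fkbp5 and Srd5a2, both linked to steroid hormones, fell in both cell sets. Fkbp5, a chaperone induced by glucocorticoid and androgen, was at 34.5, 45.8, 6.48 and 9.04 CPM (-2.22 ± 0.32 SE, edgeR adjusted p = 0.00228) and in the other mesenchymal cells at 78.5, 79.5, 13.6 and 13.9 CPM (-2.60 ± 0.12 SE, edgeR adjusted p = 0.000933). Srd5a2, the enzyme that makes dihydrotestosterone, was at 22.6, 52.8, 5.67 and 7.86 CPM (-2.20 ± 0.41 SE, edgeR adjusted p = 0.0177) and there at 31.0, 54.3, 13.7 and 9.85 CPM (-1.93 ± 0.29 SE, edgeR adjusted p = 0.0407). Both were lower in both DTA+ penises in either cell set. Srd5a2 was at 14.2, 6.78 and 22.9 CPM in the population's cells of clusters 2, 16 and 10, pooled over libraries. The part of the clusters' shares in its fall was not tested. Ankrd29 and Tpd52l1 fell in both sets too, by -1.21 and -1.34 in the population. Of the 10 glucocorticoid-induced genes, 8 were tested in the population and 1, Fkbp5, passed, with a median of -0.42, and of the 10 genes of steroid receptors and enzymes 5 were tested and 1, Srd5a2, passed, where 0.204% of all genes fell.

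Hbb-bt, an adult beta-globin gene, was also among the genes that fell, at 283, 271, 91.6 and 57.7 CPM (-1.92 ± 0.21 SE, edgeR adjusted p = 0.000111). In the other mesenchymal cells it was at 351, 321, 169 and 79.2 CPM. The most of its UMIs in 1 cell of the population was 146 of 427 in DTA- replicate 1 and 83 of 154 in DTA- replicate 2. It was 14 of 113 and 35 of 147 in DTA+ replicates 1 and 2. The DTA- levels, and with them the fold change, thus rest in part on single cells. The erythroid list summed to 4036, 3694, 2419 and 884 CPM in the other mesenchymal cells, and the part of free RNA in these values was not tested.

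**Figure D4:**
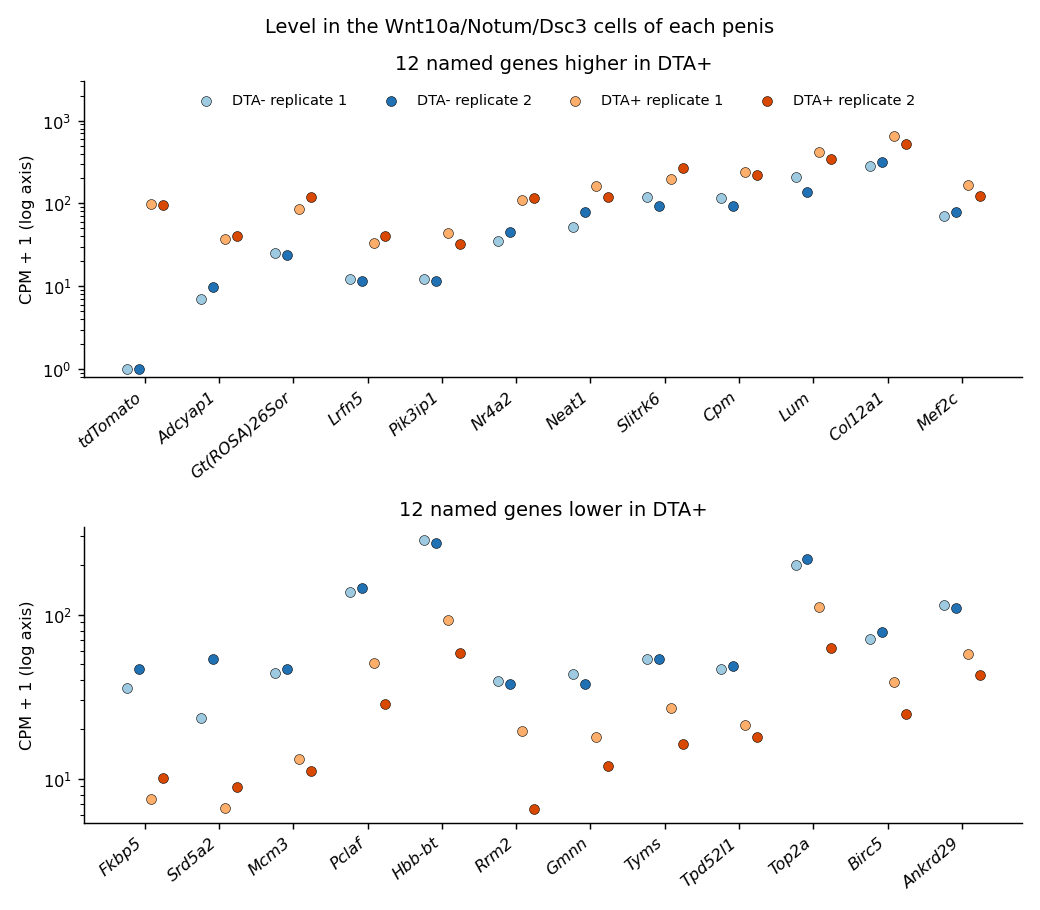
Level of the 12 named genes that rose most and the 12 that fell most in the Wnt10a/Notum/Dsc3 cells of each penis, on a log axis, with 1 point per library. They were taken from genes with at least 20 CPM and no overlap of the genotypes. By that choice the DTA+ points lie on one side of the DTA- points for each gene, as for Ankrd29 at 114, 109, 56.7 and 41.6 CPM.

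Transcripts of the reporter and of the Rosa26 locus rose. The methods name Cre alone as typed in the embryos and describe tdTomato transcript at a low level in most cells. The reporter tdTomato had 0 UMIs in both DTA- penises and 120 and 241 in DTA+. The genotype given for DTA- names no tdTomato allele. Its call among the 19 genes that rose therefore cannot be told apart from the alleles carried, and no fold change is read from it. In the other mesenchymal cells it was at 0, 0, 87.6 and 67.0 CPM. A UMI of it was found in 24.6% and 28.6% of the DTA+ cells of the population and in 23.0% and 21.7% of the other mesenchymal cells of the same libraries. Gt(ROSA)26Sor, the noncoding transcript of the Rosa26 locus, was at 23.9, 22.9, 84.3 and 119 CPM (2.14 ± 0.26 SE, edgeR adjusted p = 0.000402) and in the other mesenchymal cells at 13.5, 17.3, 72.1 and 84.9 CPM. Another gene that rose was Nr6a1, an orphan nuclear receptor gene 8827 bases from Nr5a1 on chromosome 2, with 1 UMI in DTA- and 23 and 56 in DTA+, a ratio of 43.4 (95% counting interval 7.56 to 1735). In the other mesenchymal cells Nr6a1 had 91 UMIs in DTA- and 495 and 608 in DTA+, a ratio of 13.6 (95% counting interval 10.9 to 17.0).

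Among the other genes that rose, Adcyap1, which encodes the neuropeptide PACAP, was at 5.97, 8.80, 36.5 and 38.9 CPM (2.48 ± 0.34 SE, edgeR adjusted p = 0.00143) and at no more than 2.11 CPM in the other mesenchymal cells. Nr4a2, an orphan nuclear receptor, was at 33.8, 44.0, 110.2 and 114 CPM (1.60 ± 0.22 SE, edgeR adjusted p = 0.00135). Cpm was at 117, 91.5, 239.9 and 217 CPM (1.10 ± 0.19 SE, edgeR adjusted p = 0.00981) and Lrfn5, a synaptic adhesion gene, at 11.3, 10.6, 32.4 and 39.3 CPM (1.72 ± 0.31 SE, edgeR adjusted p = 0.0149). Both are among the leading genes of cluster 16, which held 18.8%, 20.6%, 26.2% and 25.8% of the population's cells. The part of that share in the rise of Cpm and Lrfn5 was not tested.

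Col12a1, Lum and Wif1 were among the remaining genes that rose. Col12a1, a collagen that lies on fibrils, was at 283, 313, 644 and 521 CPM (0.99 ± 0.16 SE, edgeR adjusted p = 0.00981) against 136, 267, 215 and 185 CPM in the other mesenchymal cells, and the fold changes differed by 0.96 (edgeR adjusted p = 7.39e-10). Lum (lumican) was at 207, 136, 412 and 342 CPM (1.10 ± 0.20 SE, edgeR adjusted p = 0.0141), with a difference of 0.21 (edgeR adjusted p = 0.892) that did not pass. Of the 18 matrix genes tested, Col12a1 and Lum were the 2 that passed, where 0.194% of all genes rose, and the median was -0.06. Wif1, a secreted Wnt inhibitor, was at 52.4, 58.1, 113 and 100.2 CPM (0.97 ± 0.20 SE, edgeR adjusted p = 0.0425), with a difference of 0.84 (edgeR adjusted p = 0.00179). Slitrk6, a neuronal membrane protein, Cd9, a tetraspanin, and the nuclear noncoding RNA Neat1 rose by 1.14, 0.95 and 1.20. Pik3ip1, Mef2c, Igf1r and Arid5b completed the rises, with log2 fold changes of 1.72, 0.98, 0.86 and 0.85, and Adh7, an enzyme of retinol metabolism, had 1 UMI in DTA- and 19 and 41 in DTA+, a ratio of 33.0 (95% counting interval 5.69 to 1323).

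**Figure D5:**
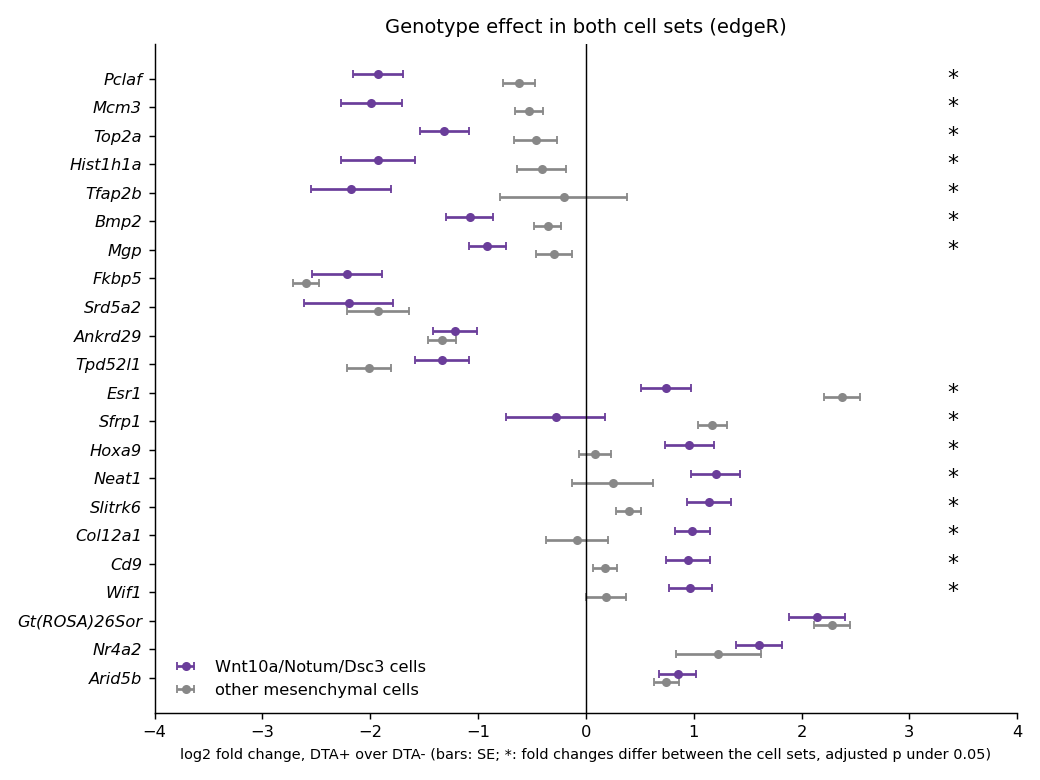
Log2 fold change between DTA+ and DTA- (horizontal axis) in the Wnt10a/Notum/Dsc3 cells and in the other mesenchymal cells of the same penises, with bars for the SE and an asterisk where the fold changes differed between the cell sets. Pclaf lies at -1.93 and -0.62, and Fkbp5 at -2.22 and -2.60.

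The lists of signalling genes were read against the 0.398% of all genes that passed, a share at which lists of this length hold few calls or none. Of the 17 Wnt ligand genes outside the rule 5 could be tested and 0 passed, with a median log2 fold change of 0.016, and of the 12 Wnt targets 10 were tested and 0 passed, with a median of 0.24. Nkd2 had a log2 fold change of 0.23 ± 0.16 SE, Apcdd1 of -0.04 ± 0.15 SE and Six2 of 0.15 ± 0.20 SE. Of the patterning factors 14 were tested, of the posterior Hox genes 11, of the Fgf genes 12 and of the hedgehog genes 8, and 0 passed in each list. Of 18 Bmp and activin genes tested 1, Bmp2, passed. In simulated counts for the population, changes of 1 log2 unit were recovered in 41.5% of 200 genes, so real changes of that size can be missed.

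Some changes of the other mesenchymal cells differed from those in the population. Esr1 was called there (2.37 ± 0.16 SE, edgeR adjusted p = 0.00361) and had 0.74 ± 0.23 SE, edgeR adjusted p = 0.217 in the population, and the fold changes differed by -1.58 (edgeR adjusted p = 2.03e-06). Sfrp1, a Wnt inhibitor, was at 19.98, 17.1, 42.3 and 45.5 CPM there and at 16.6, 5.28, 7.30 and 12.6 CPM here, with a difference of -1.41 (edgeR adjusted p = 0.0409). With thinned cells the difference for Esr1 was 0.70 and did not pass. Across all genes, the fold changes of 109 of 15265 (0.714%) differed between the cell sets, 54 (0.354%) more positive and 55 (0.36%) more negative in the population.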

How the data were processed

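Single-cell libraries of 4 penises were made by the authors with 10x chemistry, pooled and sequenced on 1 flow cell. The deposited files hold raw UMI counts per gene and barcode, per the labels from Cell Ranger (4.0.0 in the submitters' processing notes, with mm10). All 4 libraries were used, and doublets were not removed. Cells were filtered and chosen as stated above, summed per library, and compared between genotypes with edgeR 4.0.16 (R 4.3.3), quasi-likelihood test, TMM scaling, low counts filtered by edgeR's default, Benjamini-Hochberg adjustment. The interaction fit held both cell sets with the library as a block. Scripts were tested on simulated data. Clustering used scanpy 1.11.5 (2000 variable genes, 30 components, 15 neighbours, resolution 1). Promoters and coordinates were matched by symbol.

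The cells, the gene lists and the tests were chosen with earlier results of these data known. Named were the genes of the rule and lists, the 12 strongest rises and falls with at least 20 CPM and no overlap, the 20 highest and 10 lowest against other mesenchyme, and the 5 strongest interactions each way. Other called genes were added after their values were seen. Some genes are not reported here, though they remain in the counts.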

Additional observations from a re-analysis of the deposited data

Results flagged for a closer look

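With 2 libraries per genotype, no library could be tested as an outlier. What stood out was the change between DTA- and DTA+ penises differing between the Wnt10a/Notum/Dsc3 cells and the other mesenchymal cells, for 109 genes by the edgeR interaction test. The values below are differences of log2 fold changes, negative where the population moved lower, for genes of the lists, the strongest 5 each way and genes called in the population. No explanation of them was tested.

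Several of the highest and lowest rested on few cells. Plac8 (11.56), Lyz2 (5.49) and Tyrobp (5.11) had most of their UMIs in 1 cell of DTA+ replicate 1, and Pmel (10.64) in 1 cell of DTA+ replicate 2. Npy stood at 6.27, with 8 of 11 UMIs of 1 library in 1 cell. Mup17 (-3.89) had all its UMIs of DTA- replicate 2 in 1 cell, Sox18 (-2.13) had 26 UMIs in 7 cells there, and Heyl (-3.54) had 10 UMIs in 9 cells there.

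Of the 12 cell cycle genes listed 1, Top2a, was called more negative (-0.87), where 0.36% of all genes were. Hist1h1a (-1.55), Mcm3 (-1.41) and Pclaf (-1.27) lie outside that list and were grouped with it after their values were seen. Each of these 3 changed sign under 1 alternative. Signalling genes on the negative side were Sfrp1 (-1.41), the R-spondins Rspo3 (-1.0) and Rspo1 (-0.78), Bmp2 (-0.70) and Dkk2 (-0.62). Factors and receptors there were Tfap2b (-2.07), Esr1 (-1.58), Hand2os1 (-0.63) and Twist1 (-0.58). Spon1 (-1.85), Crabp1 (-0.75), Enpp2 (-0.68) and Mgp (-0.58) completed that side.

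On the positive side, Acta2 (1.95) and Tagln (0.96) are contractile genes, and Thbd was at 1.74, Col12a1 at 0.96 and Hbb-bs at 1.27. The factors Hoxa9 and Pitx1 were at 0.93 and 0.70. The Wnt inhibitors Wif1 and Nkd2 were at 0.84 and 0.49 (the call for Nkd2 was lost under all 15 alternatives run), Neat1 at 0.84, Cd9 at 0.75 and Slitrk6 at 0.74. Adh7, at 4.19, rests on 1 UMI in DTA-.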

How the results depend on the processing

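For genes between genotypes in the Wnt10a/Notum/Dsc3 cells, 39 were called. The count was 11 with at least 4 of the 7 genes, 8 with cells of cluster 2 only, 19 by DESeq2, 135 by the likelihood ratio test and 188 without a filter on low counts. With cells thinned to 1000 UMIs it was 0 by edgeR, of 1170 genes tested, with 103 at an unadjusted p under 0.05. Leaving out 1 library, where the spread comes from 1 genotype, gave 37 to 348. Directions of the 38 genes did not reverse under any alternative in which they could be tested. Of those that could be tested, 9 of 33 kept their call with at least 4 genes, 3 of 27 in cluster 2 only and 0 of 11 thinned. By DESeq2 18 of 33 kept it, and by the likelihood ratio test and without a filter all 38 did. In the other mesenchymal cells (178) the count was 653 by DESeq2, 904 by the likelihood ratio test, 53 without a filter, 323 thinned and 114 to 982 without 1 library. For the difference between the cell sets (109) it was 29 with at least 4 genes, 11 by DESeq2, 36 in cluster 2 only, 1 thinned, 68 with at most 7500 UMIs and 35 to 110 without 1 library. Of the named genes with such a difference, 11 of 40 kept their call with at least 4 genes and 6 of 40 in cluster 2 only. By DESeq2 6 of 29 kept it, thinned 0 of 35, and by the likelihood ratio test 34 of 40. The causes were not tested.

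Replicate numbers are shared between genotypes but were not taken as pairs. The correlation of deviations from the genotype means, between libraries of the same number, was -0.03 in the population and -0.25 in the others. With 2 libraries per genotype the crossed pairing has the same correlation with the opposite sign. What the libraries of the crossed pairing share was not tested. A fit with the replicate block called 130 genes in the population and 420 in the others, and a crossed pairing 229 and 1646.

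Differences between the cell sets reversed with thinned cells, among the genes named here, for Adh7 (-0.61), Esr1 (0.70), Mcm3 (0.60), Mgp (0.19), Mup17 (1.68), Npy (-4.09), Rspo1 (0.033) and Rspo3 (0.57), where the median of all genes was 0.35. They reversed with cluster 2 only for Hist1h1a (0.29), Lyz2 (-0.27), Mup17 (2.11), Pclaf (0.92) and Sox18 (6.20), with at least 4 genes for Lyz2 (-0.27), Mgp (0.031) and Sox18 (0.44), with at most 7500 UMIs for Lyz2 (-1.13), and with cells holding mesenchymal genes only for Lyz2 (-0.039). The call of a difference was kept under 0 of 15 alternatives for Nkd2, 3 of 14 for Spon1, 6 of 15 for Sfrp1, 6 of 13 for Lyz2 and Pmel, and 7 of 15 for Bmp2, Hist1h1a, Mgp and Thbd. Mup17 ran from -7.74 to 8.33 without 1 library.

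At clustering resolution 0.5 the main cluster held 71.3% of the cells, at resolution 2 it held 44.4% (the next 32.3%) and with the genes of the rule kept 46.9% (the next 33.1%). With 1 CPM added in place of 10 CPM, 164 genes lay above the other mesenchymal cells. The cluster 2 and mesenchymal-gene settings and the crossed pairing were chosen after seeing the data. DTA- replicate 2 had the fewest cells (131) and UMIs (568034).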
